A study of Mus musculus with 15 samples.

Results

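Primary astrocytes of mouse brain that had been given ginsenoside Rg1 before lipopolysaccharide (LPS) were compared with astrocytes given LPS alone. The members were taken from the sample titles: 5 Rg1 plus LPS libraries and 5 LPS libraries, 10 of the 15 libraries of polyadenylated RNA in the series. The LPS group, which the submitters call SCI for spinal cord injury, received 1 µg/mL LPS in culture for 6 to 8 h. In the other group 80 µM Rg1 was present for 12 h before the same dose and duration of LPS. The 5 libraries of untreated control astrocytes entered the model fit, which shares an estimate of spread over the 3 groups, and their levels are given beside the others for orientation. A group with Rg1 and no LPS was not analysed here, so an effect of Rg1 on resting cells and an effect on the response to LPS cannot be told apart. The treatment field of these libraries runs from Rg1 to Rg5, where the titles number 5 replicates of Rg1, and the titles were followed. Nothing states that replicates were separate cultures or animals, so each p-value measures only the spread between these samples, which may be technical.

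LPS is a component of the outer wall of Gram-negative bacteria. It is carried by LBP and CD14 to the receptor TLR4, whose adaptors MyD88 and TRIF lead to the transcription factors NF-kB and the interferon regulatory factors. In resting cells NF-kB is held in the cytoplasm by inhibitor proteins, and several of these inhibitors are themselves NF-kB target genes, which closes a feedback loop. Astrocytes, the glial cells that take up glutamate, buffer potassium and feed neurons with lactate, answer LPS by secreting chemokines and cytokines. Ginsenoside Rg1 is a triterpenoid saponin of ginseng root.

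Total counts ran from 34.2 to 41.8 M per library in LPS and from 36.2 to 41.1 M in Rg1 plus LPS. Expression is given as CPM, counts per M of the library after TMM scaling, and the values of a gene are listed from replicate 1 to replicate 5 of each group. A value written with ± is a mean with its SD over 5 libraries, and a log2 change is that of Rg1 plus LPS over LPS with its SE. The astrocyte marker Gfap was abundant in both groups, going from 2850 ± 955 to 3170 ± 540 CPM. Markers of other cells were present too. The summed CPM of the 19 microglia and macrophage markers found ran from 143 to 239 in LPS and from 126 to 154 in Rg1 plus LPS. LPS replicates 2 and 3 held the highest values, 198 and 239. Markers of fibroblasts, pericytes and meninges summed to 4800 to 6580 CPM in LPS, and to 2270 and 3090 CPM in Rg1 plus LPS replicates 1 and 4 against 4720 to 6560 CPM in replicates 2, 3 and 5. Results that change when these libraries are left out are given both ways. In bulk RNA, fewer cells of a type and less RNA per cell cannot be told apart, which holds for every result here.

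Of 15362 genes tested, 6976 changed at an adjusted p under 0.05 in edgeR's quasi-likelihood test, which is 45.4%. Of these, 3412 were higher in Rg1 plus LPS (22.2% of genes tested) and 3564 lower (23.2%). With libraries scaled to their totals only, 4895 were higher and 2630 lower, and the median log2 change of all genes moved from 0.03 to 0.14. All 5 Rg1 plus LPS libraries lay above all 5 LPS libraries for 1900 genes and below them for 2327, together 27.5% of genes tested. The share changed and the median of each gene list are to be read against 45.4% and 0.03 for all genes. Most changes were small, with 4126 of the changed genes under 1.5-fold. The tail was one-sided: 805 genes fell at least 2-fold against 448 that rose, 291 against 41 at 4-fold, 149 against 12 at 8-fold and 91 against 7 at 16-fold. Among genes whose higher group had a mean over 1000 CPM, 34 of 98 fell and 16 rose, while among those under 1 CPM, 122 of 2082 fell and 247 rose. The plot of fold change against abundance shows this shape.

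**Figure D1:**
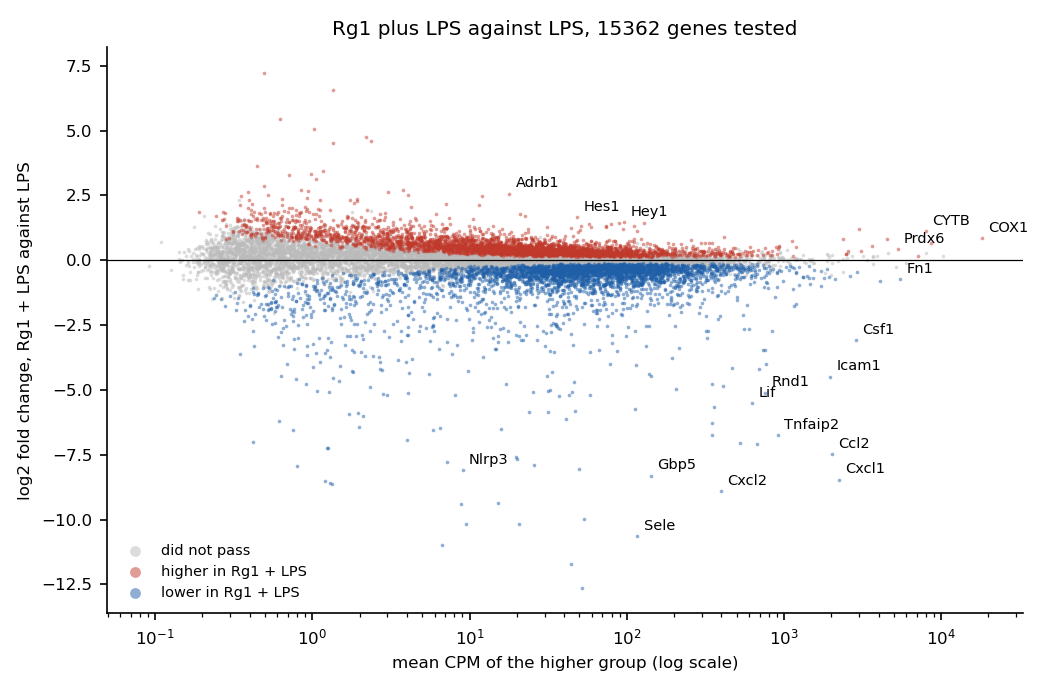
Log2 fold change of Rg1 plus LPS against LPS (vertical axis) against the mean CPM of the higher of both groups (horizontal log axis) for 15362 genes, with genes that passed at an adjusted p under 0.05 in red (3412 higher) or blue (3564 lower). Points beyond 16-fold are mostly blue, 91 lower against 7 higher, and the blue ones lie across the range of abundance.

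Promoter sequences are shown for 4 chemokine genes that fell and for the pair of genes with the highest fold changes. NF-kB acts by binding short DNA motifs at such genes. The 4 have the lowest fold changes among genes over 5 CPM with groups apart whose RefSeq window held a kappa-B match. A match in each was therefore fixed by the choice. Sele, Csf2, Il1b, Acod1 and Il1a had windows without a match and lower log2 changes than Cxcl2 and Cxcl1, and are not shown. Nos2, with the lowest log2 change, and Ccl4 had no window. The pair was picked without regard to motifs. The sequences are from RefSeq on GRCm38.p6, each the 250 bases before the annotated start on the plus strand. Of the 15 genes with the lowest log2 changes among those over 5 CPM with groups apart, 13 had a window in the RefSeq table and 7 of these held a kappa-B match, against 10 and 0 of the 15 with the highest. Capitals mark the kappa-B consensus in the first 4 and the E-box CACGTG, the binding sequence of the clock proteins, in the last. A match is a description of letters, not of binding. The windows are Ccl20 at chr1:83116516-83116765, Cxcl3 at chr5:90785851-90786100, Cxcl2 at chr5:90903649-90903898, Cxcl1 at chr5:90890995-90891244, Adrb1 at chr19:56721867-56722116 and Klf15 at chr6:90462326-90462575.
Ccl20: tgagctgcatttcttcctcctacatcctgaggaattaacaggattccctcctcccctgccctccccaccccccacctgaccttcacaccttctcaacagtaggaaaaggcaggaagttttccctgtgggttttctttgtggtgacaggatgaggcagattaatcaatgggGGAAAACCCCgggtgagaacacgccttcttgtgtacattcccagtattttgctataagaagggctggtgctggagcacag
Cxcl3: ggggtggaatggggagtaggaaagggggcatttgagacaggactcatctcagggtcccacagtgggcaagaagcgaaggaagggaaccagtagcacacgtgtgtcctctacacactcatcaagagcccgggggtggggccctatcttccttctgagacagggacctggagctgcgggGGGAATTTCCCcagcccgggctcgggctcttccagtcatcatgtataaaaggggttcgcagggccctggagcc
Cxcl2: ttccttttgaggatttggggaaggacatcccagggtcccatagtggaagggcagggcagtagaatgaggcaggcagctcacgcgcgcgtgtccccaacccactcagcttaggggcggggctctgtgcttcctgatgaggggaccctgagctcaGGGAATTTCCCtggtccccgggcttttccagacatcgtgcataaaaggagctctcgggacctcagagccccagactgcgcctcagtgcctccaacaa
Cxcl1: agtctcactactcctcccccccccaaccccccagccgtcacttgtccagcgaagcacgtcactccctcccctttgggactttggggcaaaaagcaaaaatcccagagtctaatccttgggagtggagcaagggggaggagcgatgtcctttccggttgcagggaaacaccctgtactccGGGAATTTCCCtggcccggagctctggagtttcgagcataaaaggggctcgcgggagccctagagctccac
Adrb1: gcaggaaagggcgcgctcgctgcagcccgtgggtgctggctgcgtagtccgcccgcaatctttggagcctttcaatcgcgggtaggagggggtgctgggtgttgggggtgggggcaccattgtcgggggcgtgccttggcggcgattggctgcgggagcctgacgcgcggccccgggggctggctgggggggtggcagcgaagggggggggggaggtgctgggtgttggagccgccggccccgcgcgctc
Klf15: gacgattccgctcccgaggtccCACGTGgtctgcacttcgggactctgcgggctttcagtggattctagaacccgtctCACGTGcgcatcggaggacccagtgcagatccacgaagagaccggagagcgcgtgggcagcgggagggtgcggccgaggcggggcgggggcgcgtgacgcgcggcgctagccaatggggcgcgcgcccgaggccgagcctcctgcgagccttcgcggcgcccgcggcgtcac

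Cxcl1, Cxcl2 and Cxcl3, neighbours on chromosome 5, carry the same 11 letters, GGGAATTTCCC, which read as overlapping kappa-B matches on both strands and begin 71, 97 and 73 bases before the start. Ccl20, on chromosome 1, has its match 80 bases before the start. The Adrb1 window holds neither motif, and the Klf15 sequence shown holds 2 E-boxes and no kappa-B match.

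Over the windows of 250 bases before to 50 bases after each start, the kappa-B consensus stood on either strand in 1480 of 32851 RefSeq promoter windows (4.51%). Among genes tested here with a window it stood in 779 of 11949 (6.52%). A gene counted if any of its windows held a match, so the shares of genes and the 4.51% of windows differ in unit. The share was 261 of 2798 (9.33%) among genes that fell, 90 of 573 (15.7%) among those that fell at least 2-fold, 48 of 200 (24%) at 4-fold and 32 of 107 (29.9%) at 8-fold. Among genes that rose it was 116 of 2693 (4.31%), and 18 of 323 (5.57%) of those that rose at least 2-fold. The AP-1 motif TGANTCA stood in 6.78% of genes tested with a window and in 21 of 107 (19.6%) of genes that fell at least 8-fold. The E-box CACGTG stood in 11.1% and 6.54%, and the cAMP element TGACGTCA in 3.38% and 3.74%. Among genes that rose at least 2-fold, the E-box stood in 39 of 323 (12.1%), near the 11.1% of genes tested. By list, the consensus was present for 6 of 8 NF-kB genes with a window, 5 of 10 chemokine genes, 3 of 11 cytokine genes and 0 of 9 genes of the TNF superfamily. It was present for 1 of 10 guanylate-binding protein and GTPase genes, a list that fell as a whole, and for 1 of 8 leukocyte adhesion genes. The AP-1 and early gene list had 6 of 14, MHC class I antigen processing 5 of 12 and the brakes on inflammatory signalling 6 of 15. Shares of the other lists are not given.

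The LPS receptor gene did not pass, while all NF-kB genes tested fell. Of 19 TLR4 signalling genes tested, 9 fell and 2 rose (57.9% changed, against 45.4% of all genes), with a median log2 change of -0.25 against 0.03 for all genes. Tlr4, the receptor itself, measured 26.4, 20.6, 15.4, 26.3 and 16.7 CPM in the LPS libraries and 18.4, 21.7, 18.7, 19.3 and 14.8 CPM in the Rg1 plus LPS libraries. The LPS and Rg1 plus LPS libraries overlapped, and it did not pass (log2 change -0.18 ± 0.14, adjusted p = 0.31).
Myd88, the adaptor, had 38.5, 49.6, 55.9, 38.4 and 40.8 CPM under LPS and 23.2, 23, 24.6, 24.8 and 25.4 CPM with Rg1 before LPS. With Rg1 the libraries were close together and all below LPS, and control stood at 23.1 ± 2.61 CPM (log2 change -0.88 ± 0.10, adjusted p = 4.65e-06).
Cd14, the co-receptor that hands LPS to TLR4, fell from 44.3 ± 11.2 to 6.11 ± 0.858 CPM (log2 change -2.86 ± 0.20, adjusted p = 1.7e-08), with control at 13.6 ± 3.84 CPM. Irak2, a kinase scaffold downstream of MyD88, fell from 36.6 ± 4.21 to 19.2 ± 1.89 CPM (log2 change -0.93 ± 0.09, adjusted p = 8.08e-07). Tab1, a partner of the kinase TAK1, went the other way, from 10.4 ± 0.87 to 17.8 ± 1.05 CPM (log2 change 0.77 ± 0.08, adjusted p = 8.09e-07), against 10 ± 0.644 CPM in control.

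All 11 NF-kB subunit and inhibitor genes fell (100%, against 23.2% lower of all genes), with a median log2 change of -2.99. In all 11 the 5 libraries of each group lay apart.
Nfkb1, which encodes a DNA-binding subunit, ran at 293, 343, 378, 284 and 314 CPM in LPS, against 42.5, 38, 36, 41.7 and 44.9 CPM in Rg1 plus LPS. The lowest LPS library lay above the highest Rg1 plus LPS library, and control stood at 55.6 ± 1.82 CPM (log2 change -2.99 ± 0.08, adjusted p = 9.43e-14).
Rela, the transactivating subunit, stood at 199, 214, 226, 193 and 204 CPM in LPS and at 135, 94.5, 90.9, 119 and 97.3 CPM in Rg1 plus LPS. The groups did not overlap, though Rg1 plus LPS replicates 1 and 4 were higher than the other 3 (log2 change -0.95 ± 0.10, adjusted p = 1.1e-06).
Nfkbia, the inhibitor that NF-kB induces, measured 647, 707, 794, 646 and 661 CPM in the LPS libraries and 54.7, 31.1, 29.7, 35.5 and 35.8 CPM in the Rg1 plus LPS libraries. The lowest LPS library, 646 CPM, lay far above the highest of Rg1 plus LPS, 54.7 CPM, with control at 23.7 ± 1.58 CPM (log2 change -4.21 ± 0.15, adjusted p = 1.81e-12). Nfkbiz, an atypical nuclear member of the inhibitor family, and Nfkbie, which encodes a classical cytoplasmic one, fell from 351 ± 30 to 12.6 ± 1.85 CPM (log2 change -4.79 ± 0.12, adjusted p = 3.02e-14) and from 139 ± 25.4 to 6.69 ± 1.23 CPM (log2 change -4.37 ± 0.15, adjusted p = 9.46e-13).

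Chemokines, the secreted proteins that call in leukocytes, showed the lowest list median. Of 16 tested, 14 fell and 1 rose (93.8% changed), with a median log2 change of -7.06, also with the 2 genes at or under 3 counts set to that floor.
Cxcl1, a neutrophil attractant, had 2210, 2400, 2660, 1840 and 2110 CPM under LPS and 10, 6.33, 4.57, 5.06 and 5.72 CPM with Rg1 before LPS. Replicate 1 was the highest of Rg1 plus LPS, far below every LPS library, and control stood at 10.5 ± 2.01 CPM (log2 change -8.46 ± 0.25, adjusted p = 3.37e-13).
Cxcl2, which acts on the same receptor, ran at 427, 403, 380, 425 and 339 CPM in LPS, against 2.46, 0.199, 0.247, 1.17 and 0.0238 CPM in Rg1 plus LPS. Here Rg1 plus LPS replicates 1 and 4 were the highest of their group and replicate 5 the lowest, all far below LPS (log2 change -8.91 ± 0.51, adjusted p = 2.4e-09).
Ccl2, a monocyte attractant, stood at 2050, 2210, 2200, 1750 and 1890 CPM in LPS and at 7.66, 15.9, 12.1, 8.51 and 12.7 CPM in Rg1 plus LPS. The Rg1 plus LPS libraries also lay below the 5 control libraries, at 46.2 ± 6.32 CPM (log2 change -7.47 ± 0.21, adjusted p = 1.72e-13).
Ccl20, the ligand of CCR6, measured 52.6, 41.1, 38.2, 36.4 and 52.1 CPM in the LPS libraries and 0, 0.0248, 0, 0 and 0.0238 CPM in the Rg1 plus LPS libraries. Over the groups these are 8085 and 2 counts, or 4480 to 1, with a 95% interval from 1240 to 37000 that covers counting error only, like the other intervals of such ratios. Cxcl3 had 1215 counts in LPS and 0 in Rg1 plus LPS, at least 449-fold lower against a floor of 3 counts over the group.
Ccl4, made by activated myeloid cells, had 10.6, 19.6, 26.6, 10.5 and 8.27 CPM under LPS and 0, 0.0496, 0.0247, 0.0266 and 0 CPM with Rg1 before LPS. LPS replicates 2 and 3, which held the most microglial marker RNA, were the highest (log2 change -9.35 ± 0.61, adjusted p = 6.98e-09). Cxcl14, a chemokine of resting epithelia and glia, rose from 62.8 ± 12.5 to 90.4 ± 15.6 CPM (log2 change 0.53 ± 0.14, adjusted p = 0.00492), with overlapping groups.

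Of 16 cytokine genes tested, 14 fell and 0 rose (87.5%), with a median log2 change of -6.21, and -5.94 with the 5 genes at or under 3 counts set to the floor.
Csf1, the growth factor of microglia and macrophages, ran at 2970, 2900, 2820, 2400 and 3180 CPM in LPS, against 246, 397, 321, 294 and 424 CPM in Rg1 plus LPS. The loss in mean CPM was the largest among changed genes with groups apart. The Rg1 plus LPS libraries ended around the control mean of 346 ± 38.6 CPM (log2 change -3.08 ± 0.14, adjusted p = 3.9e-11).
Csf3, which drives neutrophil production, fell from 32.4 ± 3.37 to 1.02 ± 0.177 CPM (log2 change -4.99 ± 0.13, adjusted p = 5.75e-14). Csf2 had 3798 counts in LPS and 3 in Rg1 plus LPS, a ratio of 1400 (95% counting interval 480 to 6810).
Il6, a cytokine of the gp130 family, stood at 25.4, 22.3, 31.4, 21 and 27.8 CPM in LPS and at 0.0966, 0.0745, 0.0989, 0 and 0.238 CPM in Rg1 plus LPS. None of the Rg1 plus LPS libraries exceeded 0.238 CPM (log2 change -7.90 ± 0.30, adjusted p = 4.29e-12).
Tnf, the founding member of its family, measured 41.9, 54.6, 71.9, 39.6 and 41.3 CPM in the LPS libraries and 0.507, 0.149, 0.124, 0.0532 and 0.0715 CPM in the Rg1 plus LPS libraries. The highest Rg1 plus LPS library was replicate 1, at 0.507 CPM (log2 change -8.06 ± 0.39, adjusted p = 2.4e-10).
Lif, a gp130 cytokine that acts on glia, had 623, 603, 601, 590 and 717 CPM under LPS and 7.46, 15.1, 17, 11.8 and 17.8 CPM with Rg1 before LPS. The Rg1 plus LPS libraries lay below both other groups, with control at 76.1 ± 13.1 CPM (log2 change -5.50 ± 0.22, adjusted p = 2e-11).
Il1b, whose precursor is cleaved by caspase-1, ran at 5.65, 12.7, 17.9, 6.13 and 4.73 CPM in LPS, against 0, 0, 0, 0.0266 and 0 CPM in Rg1 plus LPS. These are 1669 counts against 1, a ratio of 1850 (95% counting interval 332 to 73100). Il1a, its sister gene, had 1577 counts against 2, a ratio of 874 (242 to 7220). Ifnb1, which encodes interferon beta, had 224 against 1, and Il27 also 224 against 1, each a ratio of 248 (44.1 to 9850). For Il12b, a subunit of interleukins, the counts were 230 against 0, at least 85-fold lower, and the lymphocyte activation marker Cd69 had the same counts. With Ccl20, Cxcl3 and Nos2, these are the 10 named genes with at least 1 CPM in LPS and at most 3 counts over Rg1 plus LPS. With predicted, Riken and LOC symbols left out, 11 genes were in this state and 0 the other way round. Among the symbols left out, Gm41284 had 2 counts over LPS and 0.964 to 1.78 CPM in Rg1 plus LPS.

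Of 11 leukocyte adhesion genes, 8 fell and 0 rose (72.7%; median log2 change -1.43).
Icam1, the ligand of leukocyte integrins, stood at 1700, 2300, 2470, 1530 and 1850 CPM in LPS and at 52.2, 103, 96.6, 61.3 and 124 CPM in Rg1 plus LPS. Even the highest Rg1 plus LPS library, 124 CPM, was far below the lowest LPS library, 1530 CPM (log2 change -4.49 ± 0.24, adjusted p = 9.28e-10). Per length, as the deposited FPKM, Icam1 went from 735 to 35.3 and Csf1 from 570 to 72.5, so that Icam1 was the higher of both in LPS and the lower in Rg1 plus LPS.
Sele, or E-selectin, measured 126, 108, 126, 89.4 and 135 CPM in the LPS libraries and 0.193, 0.0248, 0.0494, 0.0532 and 0.0238 CPM in the Rg1 plus LPS libraries. Replicate 1 was the highest of Rg1 plus LPS, and all 5 lay below the control libraries, whose mean was 2.01 ± 0.757 CPM (log2 change -10.65 ± 0.35, adjusted p = 2.36e-12). Selp, or P-selectin, fell from 31.4 ± 7.94 to 0.538 ± 0.134 CPM (log2 change -5.85 ± 0.26, adjusted p = 3.7e-11).
In the TNF superfamily and its receptors, 10 of 14 fell and 1 rose (78.6%; median -1.36). Tnfsf15, a ligand that stimulates lymphocytes, had 38.6, 40.9, 46, 34.5 and 55.4 CPM under LPS and 0.459, 1.64, 1.31, 0.452 and 2.03 CPM with Rg1 before LPS. Control stood at 23.8 ± 8.91 CPM, so that all 5 Rg1 plus LPS libraries lay below both other groups (log2 change -5.18 ± 0.37, adjusted p = 2.47e-08). Tnfrsf1b, a receptor of TNF, fell from 27 ± 6.84 to 3.16 ± 0.467 CPM (log2 change -3.09 ± 0.17, adjusted p = 3.41e-10), and Tnfsf9, a ligand that co-stimulates T cells, from 9.73 ± 2.41 to 0.504 ± 0.243 CPM (log2 change -4.27 ± 0.33, adjusted p = 3.43e-08).

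**Figure D2:**
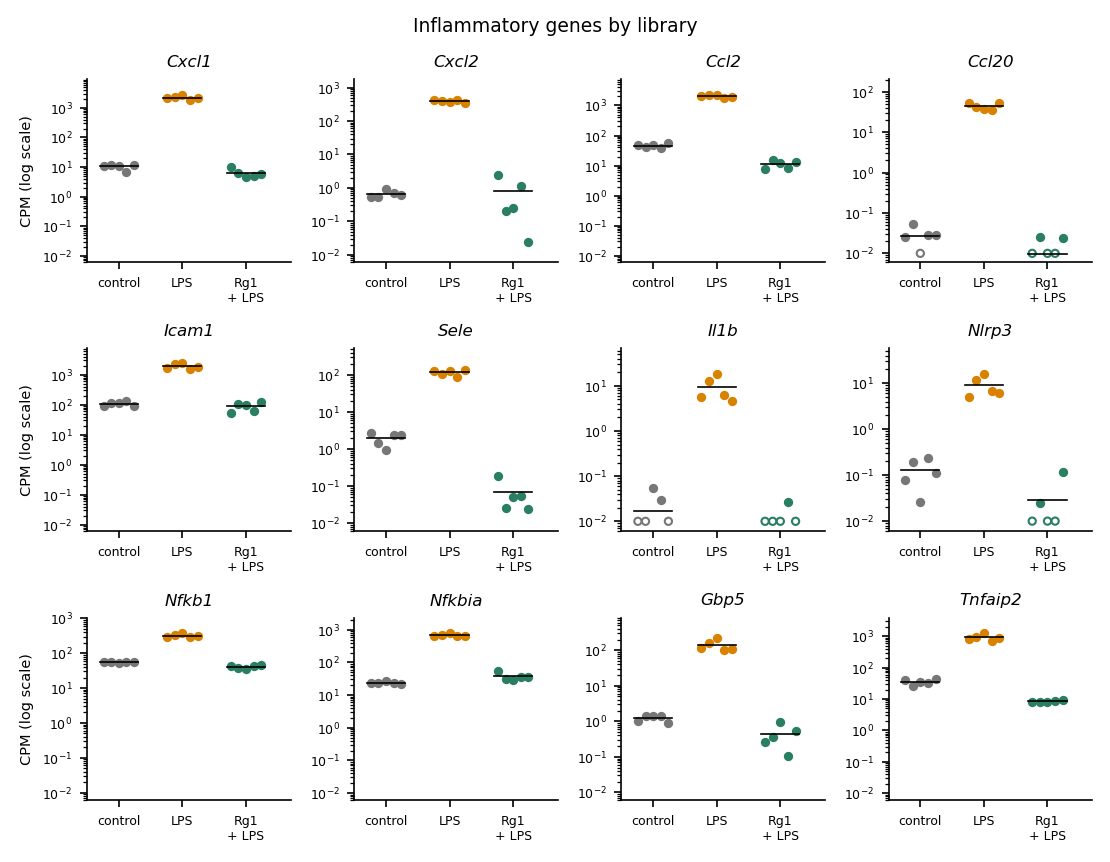
CPM on a log axis of 12 inflammatory genes in each of the 5 control (grey), 5 LPS (orange) and 5 Rg1 plus LPS (green) libraries, with the group mean as a line and open circles at 0.01 for libraries with 0 counts. In every panel the LPS libraries stand above the Rg1 plus LPS libraries with no overlap, by the least in Nfkb1 (log2 fold change -2.99) and by the most in Ccl20 (8085 against 2 counts).

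Genes of interferon effects split by kind. All 15 guanylate-binding protein and immunity-related GTPase genes fell, cell-autonomous defence proteins that coat the vacuoles of intracellular pathogens (100%; median log2 change -2.45).
Gbp5, which also promotes inflammasome assembly, ran at 112, 160, 227, 102 and 109 CPM in LPS, against 0.266, 0.372, 0.939, 0.106 and 0.524 CPM in Rg1 plus LPS. LPS replicates 2 and 3 were the highest, and every Rg1 plus LPS library lay under 1 CPM, with control at 1.25 ± 0.26 CPM (log2 change -8.31 ± 0.36, adjusted p = 8.5e-11). Gbp4 fell from 17.1 ± 9.35 to 0.625 ± 0.418 CPM (log2 change -4.76 ± 0.44, adjusted p = 4.5e-07) and Gbp2, often used as a marker of reactive astrocytes, from 320 ± 98.6 to 47.8 ± 19.4 CPM (log2 change -2.74 ± 0.28, adjusted p = 1.77e-06). Genes of this family are alike in sequence, so the authors' counting may have divided reads among them, and single members are uncertain.
Of 20 type I interferon-stimulated genes, 7 fell and 13 did not pass (35% changed, against 45.4% of all genes; median -0.63). The number that fell was 14 without Rg1 plus LPS replicate 5. Irf1, a transcription factor that NF-kB induces, fell from 464 ± 55.8 to 25.9 ± 7.14 CPM (log2 change -4.17 ± 0.22, adjusted p = 6.81e-10), Rsad2, an antiviral enzyme, from 33.2 ± 9.9 to 1.65 ± 0.318 CPM (log2 change -4.33 ± 0.34, adjusted p = 6.17e-08), and Ifih1, a sensor of viral RNA, from 28.2 ± 5.59 to 12.5 ± 2.64 CPM (log2 change -1.17 ± 0.16, adjusted p = 1.85e-05).
Of 14 genes of MHC class I antigen processing, 10 fell and 0 rose (71.4%; median -0.65). Tap2, a subunit of the peptide transporter, went from 108 ± 18.5 to 62.2 ± 7.01 CPM (log2 change -0.79 ± 0.10, adjusted p = 9.3e-06), H2-K1 from 205 ± 44.1 to 119 ± 20.4 CPM (log2 change -0.78 ± 0.13, adjusted p = 0.000174) and Erap1, a peptide-trimming enzyme, from 44.6 ± 3.95 to 28.3 ± 5.08 CPM (log2 change -0.66 ± 0.11, adjusted p = 0.000177).

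The series title names the NLRP2 inflammasome. Nlrp2 was read 6 times in LPS and 4 times in Rg1 plus LPS, summed over 5 libraries each, which is under the filter of the test, and a difference was not detectable at this depth. Of 7 inflammasome genes tested 4 fell and 3 did not pass (57.1%; median log2 change -0.90).
Nlrp3, the sensor of another inflammasome, stood at 4.92, 11.6, 15.8, 6.8 and 6.11 CPM in LPS and at 0, 0.0248, 0, 0 and 0.119 CPM in Rg1 plus LPS. LPS replicates 2 and 3 were the highest, and no Rg1 plus LPS library exceeded 0.119 CPM (log2 change -8.10 ± 0.61, adjusted p = 3.13e-08). Casp4, which binds LPS inside the cell and is also called caspase-11, fell from 4.06 ± 1.55 to 0.545 ± 0.273 CPM (log2 change -2.89 ± 0.35, adjusted p = 5.33e-06).
Microglia make both Nlrp3 and Il1b, and the 2 LPS libraries highest in them were those with the most microglial marker RNA. The part of these cells in the result was not tested. In the other 3 LPS libraries Nlrp3 stood at 4.92, 6.8 and 6.11 CPM and Il1b at 5.65, 6.13 and 4.73 CPM, all above every Rg1 plus LPS library.

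Among 12 genes of nitric oxide, itaconate and prostaglandin synthesis, 8 fell and 1 rose (75%; median -1.71).
Nos2, the inducible nitric oxide synthase, measured 43.6, 62.4, 72.6, 38.2 and 44.5 CPM in the LPS libraries and 0, 0.0248, 0, 0 and 0 CPM in the Rg1 plus LPS libraries. These are 9416 counts against 1, a ratio of 10400 (95% counting interval 1870 to 412000), the highest of these low-count ratios.
Acod1, which makes itaconate from aconitate, had 46.5, 61.2, 80.5, 39.1 and 38.5 CPM under LPS and 0, 0, 0.0494, 0.213 and 0 CPM with Rg1 before LPS. All Rg1 plus LPS libraries lay at or under 0.213 CPM (log2 change -9.97 ± 0.47, adjusted p = 2.02e-10). Slc7a2, the arginine transporter that supplies Nos2, fell from 381 ± 34.5 to 78.4 ± 13 CPM (log2 change -2.28 ± 0.11, adjusted p = 7.2e-11). Ass1, which recycles citrulline into arginine, rose from 250 ± 13.8 to 310 ± 27.7 CPM (log2 change 0.31 ± 0.08, adjusted p = 0.00318), a call that was lost with the trend of fold change on gene length removed.

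The brakes on inflammatory signalling fell with the signal. Of 15 feedback inhibitor genes, 11 fell and 1 rose (80%; median log2 change -1.42), and of 13 NF-kB survival genes 11 fell and 0 rose (84.6%; median -1.27).
Tnfaip3, a ubiquitin-editing enzyme that stops signalling to NF-kB, ran at 357, 338, 347, 355 and 335 CPM in LPS, against 3.79, 3.1, 2.64, 2.21 and 4.39 CPM in Rg1 plus LPS. The Rg1 plus LPS libraries lay below the control mean of 7.79 ± 1.65 CPM (log2 change -6.74 ± 0.18, adjusted p = 1.59e-13).
Zc3h12a, or Regnase-1, which degrades cytokine transcripts, stood at 201, 218, 232, 168 and 204 CPM in LPS and at 6.52, 7, 6.55, 5.19 and 7.22 CPM in Rg1 plus LPS. The groups were apart, with control at 8.93 ± 1.3 CPM (log2 change -4.98 ± 0.12, adjusted p = 3.02e-14).
Otud1, a deubiquitinase, measured 23.8, 21.4, 22.1, 24.2 and 21.3 CPM in the LPS libraries and 33, 43, 38.2, 38.5 and 33.7 CPM in the Rg1 plus LPS libraries. It is the member that rose, to a level still below the control mean of 59.8 ± 5.5 CPM (log2 change 0.73 ± 0.08, adjusted p = 2.57e-06).
Tnfaip2, an exocyst-related protein, had 813, 965, 1220, 708 and 896 CPM under LPS and 8.26, 8.02, 8.23, 8.75 and 9.56 CPM with Rg1 before LPS. Values with Rg1 were close to each other and below the control mean of 35.1 ± 6.91 CPM (log2 change -6.75 ± 0.18, adjusted p = 9.43e-14). Ripk2, a kinase of the NOD receptors, fell from 410 ± 72.7 to 14.3 ± 2.76 CPM (log2 change -4.85 ± 0.14, adjusted p = 2.57e-13) and Birc3, an inhibitor of apoptosis, from 87.1 ± 15.2 to 7.6 ± 0.783 CPM (log2 change -3.52 ± 0.13, adjusted p = 3.08e-12).

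AP-1 and early response genes are switched on fast by stress and growth signals. Of 18, 13 fell and 2 rose (83.3%; median log2 change -1.30). Ier3 fell from 603 ± 20.4 to 97 ± 14.6 CPM (log2 change -2.64 ± 0.09, adjusted p = 6.01e-13), Fosl2 from 502 ± 35.9 to 173 ± 15.9 CPM (log2 change -1.53 ± 0.08, adjusted p = 1.46e-10) and Junb from 318 ± 18.1 to 70.8 ± 10.2 CPM (log2 change -2.17 ± 0.11, adjusted p = 1.81e-10). The members that rose were Fos, from 45.3 ± 10.3 to 76.8 ± 27.1 CPM (log2 change 0.76 ± 0.21, adjusted p = 0.0072), and Fosb, from 2.21 ± 0.674 to 5.71 ± 4.69 CPM (log2 change 1.37 ± 0.41, adjusted p = 0.0128), both with overlapping groups. Fosb stood at 91.7 ± 14.4 CPM in control, and its call was lost in limma voom, without LPS replicates 2 and 3, and without Rg1 plus LPS replicates 1 and 4.
Nr4a3, an orphan nuclear receptor of the early response, ran at 14.6, 20.7, 20, 18.5 and 14.7 CPM in LPS, against 2.63, 1.56, 2.82, 1.41 and 1.6 CPM in Rg1 plus LPS. With control at 20.8 ± 6.69 CPM, the Rg1 plus LPS libraries lay below both other groups (log2 change -3.13 ± 0.25, adjusted p = 5.58e-08).

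By abundance, among changed genes with groups apart, the 10 with the largest losses of mean CPM were Csf1, Cxcl1, Fn1, Ccl2, Icam1, Akap12, Itgb1, Tnfaip2, Fstl1 and Sdc4. They took 2.17% to 2.64% of counts in the LPS libraries and 0.826% to 1.2% in Rg1 plus LPS, with 1.35% to 1.49% in control. These genes were chosen by this contrast, so the shares are a description.
Fn1, or fibronectin, stood at 5210, 6460, 5660, 4910 and 5250 CPM in LPS and at 2890, 3390, 3350, 2960 and 4150 CPM in Rg1 plus LPS. The highest Rg1 plus LPS library, 4150 CPM, lay below both other groups, with control at 5280 ± 270 CPM (log2 change -0.71 ± 0.10, adjusted p = 2.35e-05).
Akap12, a scaffold of protein kinase A, measured 3880, 4380, 4860, 3240 and 4120 CPM in the LPS libraries and 1630, 2870, 2470, 1890 and 3040 CPM in the Rg1 plus LPS libraries. Rg1 plus LPS replicates 1 and 4 were the lowest, and control stood at 4060 ± 181 CPM (log2 change -0.78 ± 0.15, adjusted p = 0.000425).
Sdc4, a heparan sulfate proteoglycan of focal adhesions, had 1120, 1230, 1400, 985 and 1250 CPM under LPS and 313, 389, 386, 338 and 438 CPM with Rg1 before LPS. The Rg1 plus LPS libraries spanned 313 to 438 CPM, all below LPS (log2 change -1.68 ± 0.10, adjusted p = 1.31e-09). Fstl1, a secreted glycoprotein, fell from 2120 ± 204 to 1290 ± 219 CPM (log2 change -0.72 ± 0.10, adjusted p = 2.92e-05).

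Matrix and adhesion lists had medians nearer 0 than the NF-kB list. Of 27 collagen and basement membrane genes 16 fell and 0 rose (59.3%; median log2 change -0.49), and 12 with the length trend removed. Lamc1, a laminin chain, fell from 381 ± 27.4 to 149 ± 15.3 CPM (log2 change -1.36 ± 0.07, adjusted p = 2.02e-10). Of 23 matrix proteases and inhibitors 15 fell and 2 rose (73.9%; median -0.85). Adamts4, which cleaves proteoglycans, fell from 142 ± 17.5 to 6.5 ± 2.46 CPM (log2 change -4.45 ± 0.23, adjusted p = 5.28e-10) and Plau, the urokinase gene, from 13.2 ± 2.03 to 3.68 ± 0.682 CPM (log2 change -1.85 ± 0.19, adjusted p = 1.15e-06). Mmp11 and Timp4 were the 2 that rose, from 14.7 ± 2.88 to 25.4 ± 4.39 CPM (log2 change 0.79 ± 0.13, adjusted p = 0.000157) and from 49.6 ± 4.17 to 82 ± 16.6 CPM (log2 change 0.72 ± 0.13, adjusted p = 0.000268).
Of 16 genes for the proteoglycans of the glial scar, which hold back growing axons, 9 fell and 2 rose (68.8%; median -0.49). Chst15, a sulfotransferase of chondroitin chains, fell from 42.6 ± 7.31 to 14.5 ± 2.04 CPM (log2 change -1.55 ± 0.13, adjusted p = 5.68e-08). The hyaluronan synthase genes fell, Has2 from 19.6 ± 5.15 to 2.66 ± 1.59 CPM (log2 change -2.88 ± 0.36, adjusted p = 1.36e-05) and Has1 from 4.08 ± 1.71 to 0.115 ± 0.0793 CPM (log2 change -5.12 ± 0.68, adjusted p = 1.85e-05). Bcan, the brevican core protein, rose from 145 ± 8.48 to 178 ± 14.6 CPM (log2 change 0.29 ± 0.06, adjusted p = 0.000812), with overlapping groups.
Of 17 integrin genes 8 fell and 0 rose (47.1%, near the 45.4% of all genes; median -0.36), and 5 without LPS replicate 3 or without Rg1 plus LPS replicate 4. Itgb1, the shared beta chain of the fibronectin and collagen receptors, ran at 2920, 2340, 2140, 2770 and 2990 CPM in LPS, against 1650, 1790, 1460, 1640 and 1970 CPM in Rg1 plus LPS. LPS replicate 3 was the lowest of its group and still above all of Rg1 plus LPS, with control at 2400 ± 114 CPM (log2 change -0.63 ± 0.10, adjusted p = 7.27e-05). Itga5, the fibronectin receptor's alpha chain, fell from 299 ± 46.4 to 95.1 ± 20.5 CPM (log2 change -1.65 ± 0.17, adjusted p = 1.7e-06).

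Genes of cell motility and the cytoskeleton were also among those that fell.
Rnd1, a GTPase that dissolves actin stress fibres, stood at 712, 792, 953, 601 and 751 CPM in LPS and at 18.8, 25, 21.9, 18.8 and 26.5 CPM in Rg1 plus LPS. Every Rg1 plus LPS library lay below the control mean of 68.5 ± 8.65 CPM (log2 change -5.10 ± 0.15, adjusted p = 1.87e-13). Rhob fell from 774 ± 69.3 to 427 ± 28.7 CPM (log2 change -0.86 ± 0.08, adjusted p = 2.12e-07) and Plxna2, a semaphorin co-receptor, from 197 ± 8.03 to 96.5 ± 13.6 CPM (log2 change -1.03 ± 0.09, adjusted p = 1.62e-07).
Of 22 cytoskeletal and SRF or YAP target genes 11 fell and 0 rose (50%, near the 45.4% of all genes; median -0.36). Myh9, the non-muscle myosin heavy chain, fell from 1470 ± 278 to 788 ± 127 CPM (log2 change -0.90 ± 0.14, adjusted p = 6.35e-05) and Vcl, or vinculin, from 720 ± 106 to 450 ± 51.6 CPM (log2 change -0.68 ± 0.10, adjusted p = 5.01e-05), the latter against 1120 ± 76.9 CPM in control. Cd44, the hyaluronan receptor, fell from 877 ± 54.8 to 326 ± 45.7 CPM (log2 change -1.43 ± 0.09, adjusted p = 2.43e-09). Vim, which encodes the intermediate filament vimentin, rose from 6360 ± 222 to 7150 ± 146 CPM (log2 change 0.17 ± 0.06, adjusted p = 0.0268), but its call was lost without LPS replicate 2 or 4, and with the length trend removed its log2 fold change was 0.00 and of the other sign.

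Of 25 genes for secreted growth factors 12 fell, 1 rose and 12 did not pass (52%, near the 45.4% of all genes; median log2 change -0.48).
Pdgfb, which acts on pericytes, measured 194, 229, 262, 176 and 215 CPM in the LPS libraries and 9.37, 23.6, 24.9, 17.4 and 26.7 CPM in the Rg1 plus LPS libraries. Rg1 plus LPS replicate 1 was the lowest, and all 5 lay far below LPS (log2 change -3.40 ± 0.22, adjusted p = 8.62e-09). Nrg1, a ligand of the ERBB receptors, fell from 140 ± 7.24 to 58.5 ± 5.38 CPM (log2 change -1.26 ± 0.07, adjusted p = 8.08e-10) and Bdnf, the neurotrophin, from 68.3 ± 8.28 to 29.1 ± 4.96 CPM (log2 change -1.23 ± 0.11, adjusted p = 1.28e-07).
Ereg, or epiregulin, had 90.5, 49.3, 26.9, 82.5 and 73.9 CPM under LPS and 18.2, 11.7, 5.78, 12.6 and 7.94 CPM with Rg1 before LPS. With control at 82.2 ± 39.3 CPM, all 5 Rg1 plus LPS libraries lay below both other groups (log2 change -2.53 ± 0.40, adjusted p = 0.000107). Fgf18 was the member that rose, from 1.27 ± 0.249 to 2.96 ± 0.8 CPM (log2 change 1.22 ± 0.21, adjusted p = 0.000187).
Of 15 TGF-beta ligand and target genes 10 fell and 0 rose (66.7%; median -0.61), while 3 rose without Rg1 plus LPS replicates 1 and 4. Smad3, which carries the TGF-beta signal, fell from 156 ± 32.1 to 55.8 ± 4.62 CPM (log2 change -1.48 ± 0.11, adjusted p = 1.9e-08) and Skil, its repressor, from 115 ± 13.2 to 43.1 ± 7.92 CPM (log2 change -1.42 ± 0.11, adjusted p = 2.65e-08). Among 21 BMP, ID and SMAD genes the directions were mixed, with 5 lower and 4 higher (42.9%). Bmp2 fell from 4.31 ± 0.568 to 0.302 ± 0.104 CPM (log2 change -3.82 ± 0.27, adjusted p = 1.12e-08), and Id4, an inhibitor of basic helix-loop-helix factors, rose from 30.3 ± 6.14 to 74.2 ± 21.8 CPM (log2 change 1.29 ± 0.18, adjusted p = 3.96e-05).

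Genes of cholesterol synthesis and uptake were lower. In this list 16 of 24 fell and 0 rose (66.7%; median log2 change -0.37), and 18 with the length trend removed.
Stard4, a carrier of cholesterol between membranes, ran at 69.6, 62.6, 55.1, 56.6 and 65.1 CPM in LPS, against 24.3, 31.3, 28.8, 25.2 and 25.6 CPM in Rg1 plus LPS. No Rg1 plus LPS library came near the LPS range, and control stood at 63.9 ± 7.99 CPM (log2 change -1.19 ± 0.10, adjusted p = 5.05e-08). Fasn, the fatty acid synthase, fell from 326 ± 26.2 to 192 ± 21.7 CPM (log2 change -0.76 ± 0.08, adjusted p = 1.2e-06) among 18 genes of fatty acid synthesis of which 6 fell and 2 rose (44.4%). Apoe, the main lipid carrier made by astrocytes, rose from 2450 ± 757 to 3630 ± 608 CPM (log2 change 0.56 ± 0.16, adjusted p = 0.0105), with overlapping groups.
Of 20 aminoacyl-tRNA synthetase genes, which charge tRNAs for translation, 12 fell and 0 rose (60%; median -0.24). Iars fell from 116 ± 12 to 69.3 ± 9.37 CPM (log2 change -0.75 ± 0.09, adjusted p = 4.04e-06) and Eprs from 178 ± 8.86 to 126 ± 11.8 CPM (log2 change -0.49 ± 0.06, adjusted p = 8.38e-06). With scaling to library totals only, 7 of the 20 fell.

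Among regulators of chromatin and of mRNA stability, shares changed were not far from the 45.4% of all genes. Of 26 DNA and histone modifiers 12 fell, 2 rose and 12 did not pass (53.8%; median log2 change -0.18). Dnmt3a, a DNA methyltransferase, fell from 31.4 ± 3.8 to 14.6 ± 1.5 CPM (log2 change -1.10 ± 0.09, adjusted p = 4.33e-08), and Kdm6b, a histone demethylase that LPS induces in macrophages, from 58.9 ± 4.49 to 28.3 ± 4.55 CPM (log2 change -1.05 ± 0.10, adjusted p = 1.94e-07). Hdac11 rose from 16.3 ± 1.98 to 22.5 ± 2.47 CPM (log2 change 0.46 ± 0.09, adjusted p = 0.000611). Of 25 mRNA decay and splicing factors 12 fell, 1 rose and 12 did not pass (52%; median -0.23). Zfp36, or tristetraprolin, which marks cytokine transcripts for decay, fell from 93.4 ± 12.4 to 29.9 ± 7.44 CPM (log2 change -1.64 ± 0.14, adjusted p = 1.12e-07), and its relative Zfp36l2 from 398 ± 14.7 to 173 ± 13.5 CPM (log2 change -1.20 ± 0.10, adjusted p = 6.4e-08).
Of 18 p53 target genes 9 fell and 5 rose (77.8%; median -0.08), and the Gadd45 genes, stress-responsive growth arrest genes, did not move as one. Gadd45b, an NF-kB target, fell from 389 ± 37.7 to 86.9 ± 25.1 CPM (log2 change -2.16 ± 0.14, adjusted p = 8.41e-09). Gadd45g stood at 25.9, 35, 43.4, 29.3 and 33.8 CPM in LPS and at 82.1, 94, 95.2, 73.7 and 103 CPM in Rg1 plus LPS. Every Rg1 plus LPS library lay above both other groups, with control at 38 ± 6.69 CPM (log2 change 1.42 ± 0.14, adjusted p = 6.18e-07). Gadd45a, at 79 ± 10.4 to 82.7 ± 45.4 CPM, did not pass (log2 change 0.07 ± 0.26, adjusted p = 0.861). It lies outside the rule for named genes and was chosen after its values were seen.

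Among genes over 5 CPM with groups apart, the beta-adrenergic receptor gene Adrb1 had the highest log2 change. Astrocytes carry beta-adrenergic receptors that raise cAMP on noradrenaline and break down glycogen. Of 18 genes of this list 4 rose and 5 fell (50%, near the 45.4% of all genes; median log2 change 0.23).
Adrb1, the beta1 receptor, measured 2.96, 3.28, 3.04, 2.48 and 3.33 CPM in the LPS libraries and 11.4, 19.1, 21.6, 17.9 and 19.5 CPM in the Rg1 plus LPS libraries. Replicate 1 was the lowest of its group and still above every LPS library, with control at 10.8 ± 0.487 CPM (log2 change 2.56 ± 0.14, adjusted p = 6.19e-10).
Rgs2, which shortens signalling by G proteins, had 2.34, 2.58, 2.52, 2.74 and 2.83 CPM under LPS and 7.49, 12.5, 15.3, 8.59 and 13.8 CPM with Rg1 before LPS. Rg1 plus LPS replicates 1 and 4 were the lowest of their group and above all of LPS, with control at 17.8 ± 1.96 CPM (log2 change 2.15 ± 0.17, adjusted p = 5.49e-08).
Pde4b, a phosphodiesterase that breaks down cAMP, ran at 171, 203, 266, 153 and 178 CPM in LPS, against 13.1, 14.9, 16.9, 12.6 and 14.5 CPM in Rg1 plus LPS. All Rg1 plus LPS libraries lay below the LPS libraries and the control mean of 55.8 ± 9.18 CPM (log2 change -3.75 ± 0.15, adjusted p = 2e-11). Sik1, a kinase that cAMP induces, fell from 35.5 ± 5.14 to 10.8 ± 2.93 CPM (log2 change -1.72 ± 0.20, adjusted p = 4.67e-06).
Ppp1r3c, a gene of glycogen metabolism, stood at 3.87, 7.27, 9.71, 4.66 and 4.88 CPM in LPS and at 9.76, 24.6, 31.5, 12.3 and 26.3 CPM in Rg1 plus LPS. Replicates 1 and 4 were the lowest of Rg1 plus LPS, and the lower of them, 9.76 CPM, lay next to the highest LPS library, 9.71 (log2 change 1.78 ± 0.31, adjusted p = 0.000274).

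The circadian clock list held changes both ways. Of 19 genes 8 rose and 6 fell (73.7%; median log2 change 0.15). The proteins CLOCK and BMAL1 drive Per1, Dbp and Nr1d1 through E-boxes, and these rose. Their relatives and the Cry genes were mixed. Per2 (log2 change 0.80) and Cry2 (0.51) rose, Cry1 fell (-0.66), and Per3 (-0.18) and Nr1d2 (-0.26) did not pass. The part of CLOCK and BMAL1 was not tested.
Per1, a clock repressor that cAMP and glucocorticoids also induce, measured 21.4, 23.5, 21.1, 28.5 and 21.3 CPM in the LPS libraries and 52.5, 49.2, 45, 47.4 and 50.4 CPM in the Rg1 plus LPS libraries. All 5 values with Rg1 lay above both other groups, with control at 30.5 ± 2.08 CPM (log2 change 1.08 ± 0.08, adjusted p = 2.86e-08).
Dbp, an output transcription factor of the clock, had 26.7, 30.1, 39.9, 26.3 and 25.8 CPM under LPS and 57.5, 76.5, 92.4, 63.3 and 81.8 CPM with Rg1 before LPS. With Rg1 every library lay above LPS and control, which stood at 53.5 ± 4.59 CPM (log2 change 1.32 ± 0.14, adjusted p = 1.07e-06). The lowest library with Rg1, 57.5 CPM, lay next to the highest control library, 57.3 CPM.
Nr1d1, the repressor REV-ERB alpha, ran at 23.2, 25.2, 25, 26.1 and 20.6 CPM in LPS, against 49.6, 40, 45.2, 45.5 and 47.2 CPM in Rg1 plus LPS. The Rg1 plus LPS libraries lay between LPS and control, which stood at 69.3 ± 8.47 CPM (log2 change 0.92 ± 0.09, adjusted p = 3.66e-07). Among those that fell, Npas2, a partner of BMAL1, went from 1.37 ± 0.447 to 0.412 ± 0.063 CPM (log2 change -1.72 ± 0.30, adjusted p = 0.000213), Nfil3, which opposes Dbp, from 31.4 ± 3.38 to 18.6 ± 2.26 CPM (log2 change -0.76 ± 0.10, adjusted p = 1.61e-05) and Rora, which activates Bmal1, from 40.9 ± 6.31 to 23.5 ± 2.41 CPM (log2 change -0.80 ± 0.12, adjusted p = 3.59e-05). The labels used here give no clock time of harvest.

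Glucocorticoid receptor targets were mixed. Of 19, 7 rose and 5 fell (63.2%; median log2 change 0.32).
Klf15, a direct target of the receptor in many tissues, stood at 1.53, 2.63, 3.44, 1.98 and 1.4 CPM in LPS and at 8.77, 12.3, 15.6, 10.6 and 12.9 CPM in Rg1 plus LPS. Every Rg1 plus LPS library lay above both other groups, with control at 4.71 ± 1.27 CPM (log2 change 2.46 ± 0.25, adjusted p = 9.98e-07). Tsc22d3, the glucocorticoid-induced leucine zipper, rose from 26.4 ± 2.59 to 40.5 ± 7.15 CPM (log2 change 0.62 ± 0.11, adjusted p = 0.000184), below its control mean of 46.8 ± 2.8 CPM. Angptl4 fell from 33.1 ± 6 to 5.91 ± 2.21 CPM (log2 change -2.48 ± 0.25, adjusted p = 1.15e-06), Cdkn1a, a cell cycle inhibitor that p53 also drives, from 903 ± 123 to 440 ± 37.9 CPM (log2 change -1.04 ± 0.10, adjusted p = 2.76e-07), and the receptor gene Nr3c1 itself from 109 ± 5.51 to 71.2 ± 6.23 CPM (log2 change -0.61 ± 0.06, adjusted p = 7.55e-07).
Of 14 Krüppel-like factor genes 3 rose and 8 fell (78.6%). Several of those that fell stood close to the threshold, and the number that fell was 4 to 6 without any single Rg1 plus LPS replicate from 2 to 5, or without LPS replicate 1, 2, 4 or 5, and 2 with scaling to library totals only. Klf11 rose from 2.88 ± 1.18 to 6.9 ± 1.22 CPM (log2 change 1.26 ± 0.22, adjusted p = 0.000189), and Klf10, which TGF-beta induces, fell from 43.8 ± 3.88 to 22.8 ± 4.5 CPM (log2 change -0.94 ± 0.12, adjusted p = 8.17e-06).

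In the Notch pathway, target genes were among those that rose, and ligand and cofactor genes among those that fell. Of 15 genes 5 rose and 7 fell (80%; median log2 change 0.06), and the number that fell was 4 with the length trend removed.
Hes1, the transcriptional repressor that Notch turns on, measured 16.1, 15.1, 11.3, 15.8 and 17.9 CPM in the LPS libraries and 38.1, 56.2, 45.2, 47.6 and 54.9 CPM in the Rg1 plus LPS libraries. The lowest Rg1 plus LPS library, 38.1 CPM, lay above the highest of LPS, 17.9, with control at 40.9 ± 4.79 CPM (log2 change 1.67 ± 0.13, adjusted p = 2.8e-08).
Hey1, a target of the same family, had 30.8, 39.8, 45.9, 29.9 and 28.8 CPM under LPS and 72.6, 108, 125, 82.8 and 93.6 CPM with Rg1 before LPS. With Rg1 the libraries also lay above control, at 65.4 ± 3.55 CPM (log2 change 1.46 ± 0.15, adjusted p = 9.82e-07). Lfng, a glycosyltransferase that tunes Notch receptors, rose from 12.8 ± 1.35 to 31.1 ± 9.83 CPM (log2 change 1.28 ± 0.17, adjusted p = 2.35e-05). Rbpj, the DNA-binding partner of Notch, fell from 132 ± 13.7 to 60.6 ± 1.98 CPM (log2 change -1.13 ± 0.07, adjusted p = 9.73e-10), Maml1, its co-activator, from 38.8 ± 3.29 to 24.7 ± 3.5 CPM (log2 change -0.65 ± 0.09, adjusted p = 3.08e-05) and the ligand gene Jag1 from 47.3 ± 3.42 to 30.2 ± 6.43 CPM (log2 change -0.65 ± 0.12, adjusted p = 0.000255).

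**Figure D3:**
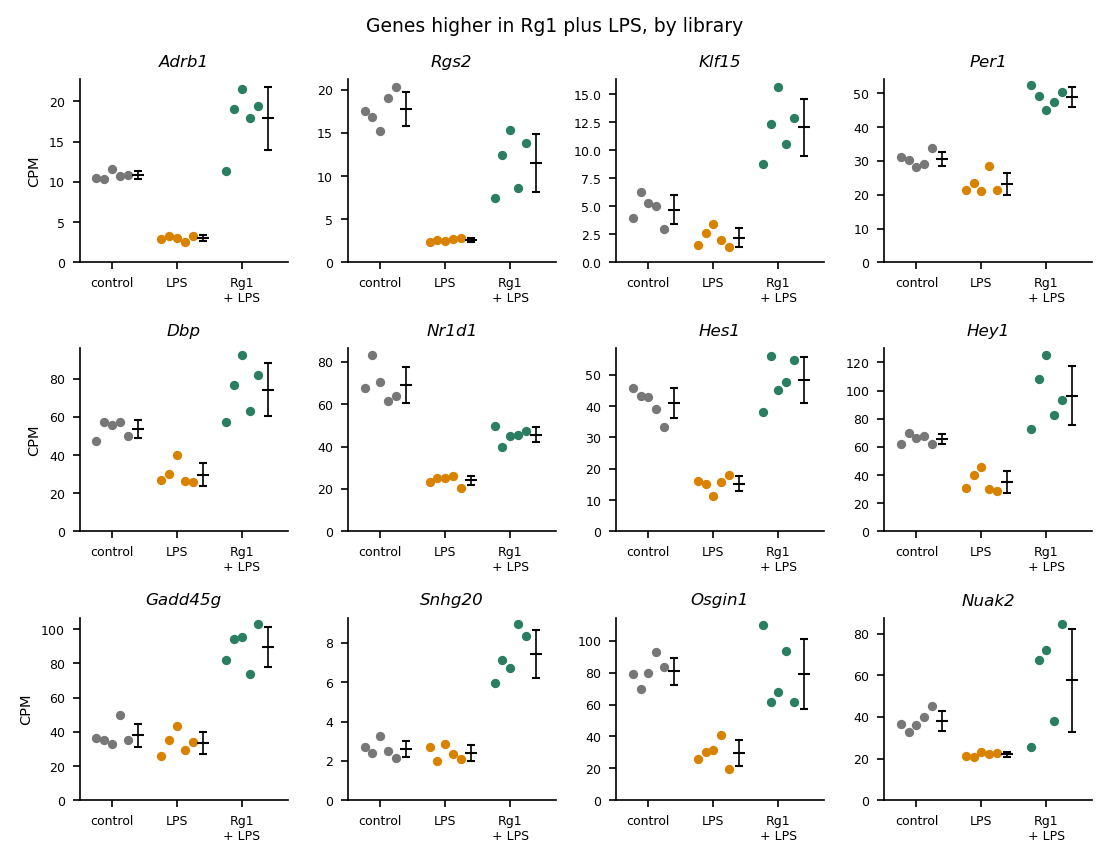
CPM on a linear axis of 12 genes that rose, in each of the 5 control (grey), 5 LPS (orange) and 5 Rg1 plus LPS (green) libraries, with the group mean and SD as a bar beside the points. Per1, Dbp, Klf15, Hey1, Gadd45g and Snhg20 lie above both other groups in all 5 Rg1 plus LPS libraries, Nr1d1 stays below control, and Nuak2 is spread from 25.8 to 84.5 CPM.

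Astrocyte identity genes changed about as often as all genes. Of 27, 9 rose and 2 fell (40.7%, against 45.4% of all genes; median log2 change 0.27). The count that rose was 17 without LPS replicate 3, 6 without LPS replicate 1 or 4 or Rg1 plus LPS replicate 3, 15 without Rg1 plus LPS replicates 1 and 4 and 14 with scaling to library totals only. The count that fell was 0 to 3 over the libraries left out one at a time.
Sox9, a factor that sets glial fate, ran at 62.6, 77.3, 86.4, 67.9 and 56.2 CPM in LPS, against 116, 128, 158, 97.9 and 113 CPM in Rg1 plus LPS. Rg1 plus LPS lay above all of LPS and below control, which stood at 193 ± 10.5 CPM (log2 change 0.81 ± 0.12, adjusted p = 5.6e-05).
S100b, a calcium-binding protein, stood at 19, 24.6, 27.5, 17.5 and 21.2 CPM in LPS and at 28.8, 38.6, 43.2, 37.6 and 40.5 CPM in Rg1 plus LPS. All Rg1 plus LPS libraries lay above the LPS libraries (log2 change 0.78 ± 0.12, adjusted p = 7.36e-05). Fabp7, the brain fatty acid binding protein, rose from 341 ± 15.5 to 473 ± 52.6 CPM (log2 change 0.47 ± 0.07, adjusted p = 3.15e-05), a call lost with the length trend removed. The glutamate transporter gene Slc1a3 fell from 751 ± 130 to 604 ± 86.9 CPM (log2 change -0.32 ± 0.11, adjusted p = 0.0323) and the bicarbonate transporter gene Slc4a4 from 301 ± 33.7 to 220 ± 60.9 CPM (log2 change -0.45 ± 0.15, adjusted p = 0.0202), both with overlapping groups. Both calls were lost with the length trend removed, with scaling to library totals only and without Rg1 plus LPS replicate 4, and that of Slc1a3 also without Rg1 plus LPS replicate 1, 2 or 5 or LPS replicate 2 or 3. Gfap did not pass (log2 change 0.15 ± 0.18, adjusted p = 0.518).
Mt3, a metallothionein of brain, measured 531, 706, 939, 547 and 679 CPM in the LPS libraries and 948, 1030, 1290, 1120 and 1260 CPM in the Rg1 plus LPS libraries. Its LPS replicate 3 nearly reached the lowest Rg1 plus LPS library (log2 change 0.73 ± 0.14, adjusted p = 0.000401). Prdx6, a peroxide-removing enzyme, had 3620, 3980, 4750, 3750 and 3700 CPM under LPS and 5120, 4780, 5730, 5530 and 5280 CPM with Rg1 before LPS. The groups lay side by side, with 4750 CPM the highest in LPS and 4780 the lowest in Rg1 plus LPS (log2 change 0.42 ± 0.08, adjusted p = 0.000727).
Of 22 NRF2 target and metallothionein genes 8 rose and 3 fell (50%, near the 45.4% of all genes; median 0.22), while without Rg1 plus LPS replicates 1 and 4 the number that fell was 8 and the median -0.19. Osgin1, an oxidative stress-induced gene, ran at 25.7, 30.4, 31.4, 41.2 and 19.7 CPM in LPS, against 110, 61.3, 68.1, 93.7 and 61.6 CPM in Rg1 plus LPS. Replicates 1 and 4 were the highest of Rg1 plus LPS, the reverse of their place in Ppp1r3c (log2 change 1.41 ± 0.19, adjusted p = 2.56e-05). Nuak2, a kinase related to AMPK, stood at 21.3, 20.8, 23.4, 22 and 22.5 CPM in LPS and at 25.8, 67.2, 72, 37.9 and 84.5 CPM in Rg1 plus LPS. Its Rg1 plus LPS values were spread over a wider range than those of LPS, and all lay above LPS (log2 change 1.39 ± 0.24, adjusted p = 0.000238). Sod2, the mitochondrial superoxide dismutase and an NF-kB target, fell from 175 ± 28.3 to 82.2 ± 3.87 CPM (log2 change -1.09 ± 0.09, adjusted p = 4.14e-08).

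Mitochondrially encoded transcripts took a larger share of counts. Their share was 2.372%, 2.067%, 2.009%, 2.22% and 1.575% in LPS and 3.987%, 4.48%, 4.073%, 4.976% and 2.77% in Rg1 plus LPS. Every Rg1 plus LPS library lay above every LPS library, with means of 2.05 ± 0.3% and 4.06 ± 0.819% (SD, n = 5 each) and a difference of 2.01 points (two-sided exact permutation test, p = 0.00794, the smallest that 5 against 5 libraries allow). Of 13 genes 9 rose and 0 fell (69.2%; median log2 change 1.11), 8 with the length trend removed.
COX1, a subunit of cytochrome c oxidase, measured 11200, 10100, 10300, 10800 and 8130 CPM in the LPS libraries and 18400, 19100, 18300, 21800 and 12700 CPM in the Rg1 plus LPS libraries. Its gain of mean CPM was the largest among changed genes with groups apart (log2 change 0.84 ± 0.12, adjusted p = 3.3e-05).
CYTB, of respiratory complex III, had 4170, 3680, 3850, 3720 and 3010 CPM under LPS and 7320, 8550, 7890, 9680 and 6420 CPM with Rg1 before LPS. Replicate 5 was the lowest of its group in both genes, as it was in LPS (log2 change 1.11 ± 0.11, adjusted p = 4.75e-07). COX2 rose from 44.8 ± 8.59 to 111 ± 29.5 CPM (log2 change 1.31 ± 0.17, adjusted p = 1.4e-05).
Lars2, the nuclear gene of the mitochondrial leucyl-tRNA synthetase, ran at 167, 242, 254, 244 and 204 CPM in LPS, against 455, 346, 315, 487 and 481 CPM in Rg1 plus LPS. Every Rg1 plus LPS library lay above both other groups, with control at 231 ± 35.6 CPM (log2 change 0.91 ± 0.14, adjusted p = 0.000114). Among changed genes with groups apart, the 10 with the largest gains of mean CPM, chosen by this contrast, took 2.43% to 2.84% of counts in LPS. They took 3.92% to 5.47% in Rg1 plus LPS and 3.34% to 3.69% in control. Genes with overlapping groups, such as Apoe (2450 to 3630 CPM), were left out of this ranking.

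Small changes in translation and respiration genes followed gene length. With genes in 4 equal groups by length, the median log2 change was 0.24 in the shortest, 0.07 and -0.06 in the next and -0.19 in the longest, with 1503 higher and 305 lower in the shortest and 412 higher and 1523 lower in the longest. Spearman's rank correlation between length and log2 fold change was -0.33 over 15359 genes, which are not independent replicates and share libraries. With this trend removed, 2717 genes were higher and 3301 lower.
Of 43 cytosolic ribosomal protein genes 30 rose and 0 fell (69.8%; median 0.24), but with the trend removed 3 rose and 7 fell (median -0.04). Rps15 went from 421 ± 36.8 to 604 ± 65.3 CPM (log2 change 0.52 ± 0.08, adjusted p = 3.93e-05) and Rpl41 from 624 ± 50.2 to 895 ± 89.5 CPM (log2 change 0.52 ± 0.07, adjusted p = 2.35e-05), the latter a call lost with the trend removed. Of 37 nuclear-encoded respiratory chain genes 22 rose and 2 fell (64.9%; median 0.18), and with the trend removed 1 rose and 19 fell (median -0.14). Ndufa2, a subunit of complex I, went from 75.5 ± 6.58 to 110 ± 9.36 CPM (log2 change 0.54 ± 0.07, adjusted p = 6.45e-06). The direction of both lists flips with this setting. Of 29 mitochondrial ribosomal protein genes 18 rose and 0 fell (62.1%; median 0.25), and 11 rose with the trend removed. Mrpl34 went from 21.5 ± 1.89 to 32.8 ± 2.37 CPM (log2 change 0.61 ± 0.07, adjusted p = 2.76e-06).
In the inflammatory lists the counts were the same with it removed, with 11 NF-kB, 15 guanylate-binding protein, 14 chemokine and 14 cytokine genes lower. Of 26 proteasome genes 4 fell and 1 rose (19.2%), and with the trend removed 20 fell.

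**Figure D4:**
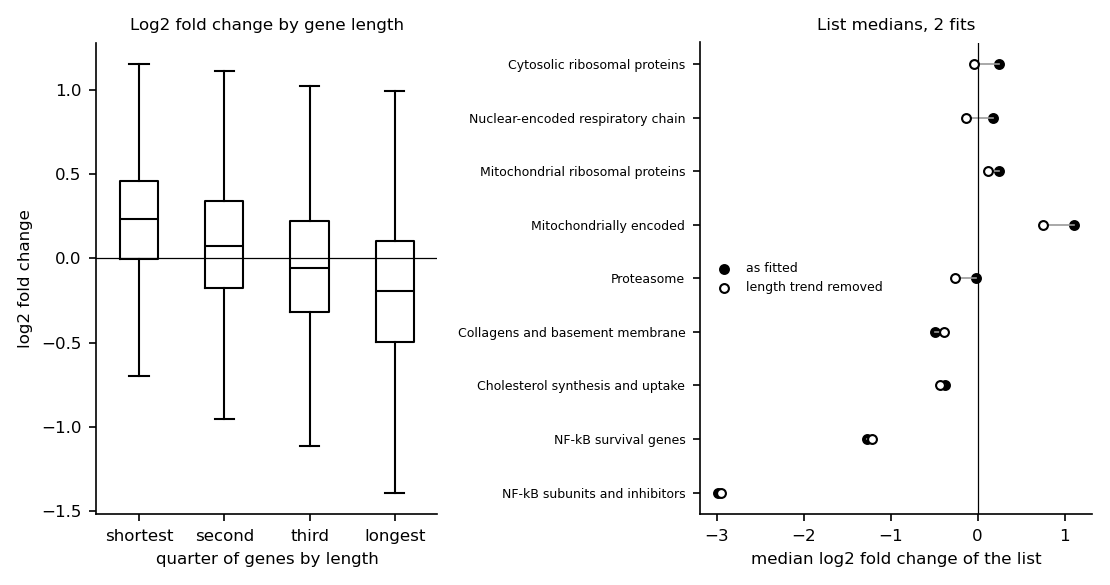
Left, boxes of log2 fold change (median, quartiles, whiskers to 1.5 times the interquartile range) in 4 equal groups of genes by length, with medians from 0.24 in the shortest to -0.19 in the longest. Right, the median log2 change of 9 lists as fitted (filled) and with the length trend removed (open), where the cytosolic ribosomal (0.24 to -0.04) and respiratory chain (0.18 to -0.14) lists cross 0 and the NF-kB list does not.

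Cell cycle genes showed few calls. Of 24 mitosis genes 0 passed in edgeR's quasi-likelihood test and 1 had an unadjusted p under 0.05, against 1 called in DESeq2, 0 in limma voom, and 2 that fell in edgeR without LPS replicate 3. Of 26 DNA replication genes 1 rose, Pold1, from 7.93 ± 2.32 to 11.6 ± 3.37 CPM (log2 change 0.54 ± 0.20, adjusted p = 0.0326), a call lost without Rg1 plus LPS replicate 2 or 5 or LPS replicate 2, 3 or 4. Of 18 heat shock protein genes 3 rose and 1 fell (22.2%), and 0 passed with the length trend removed, while 5 fell without Rg1 plus LPS replicates 1 and 4. Of 22 glycolysis genes 6 fell and 3 rose (40.9%; median log2 change 0.06). Hk2, a hexokinase that growth signals induce, fell from 70.4 ± 6.86 to 25.6 ± 4.28 CPM (log2 change -1.46 ± 0.11, adjusted p = 1.99e-08), and Eno2, an enolase, from 79.3 ± 8.26 to 39.5 ± 5.48 CPM (log2 change -1.01 ± 0.09, adjusted p = 2.14e-07).

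**Figure D5:**
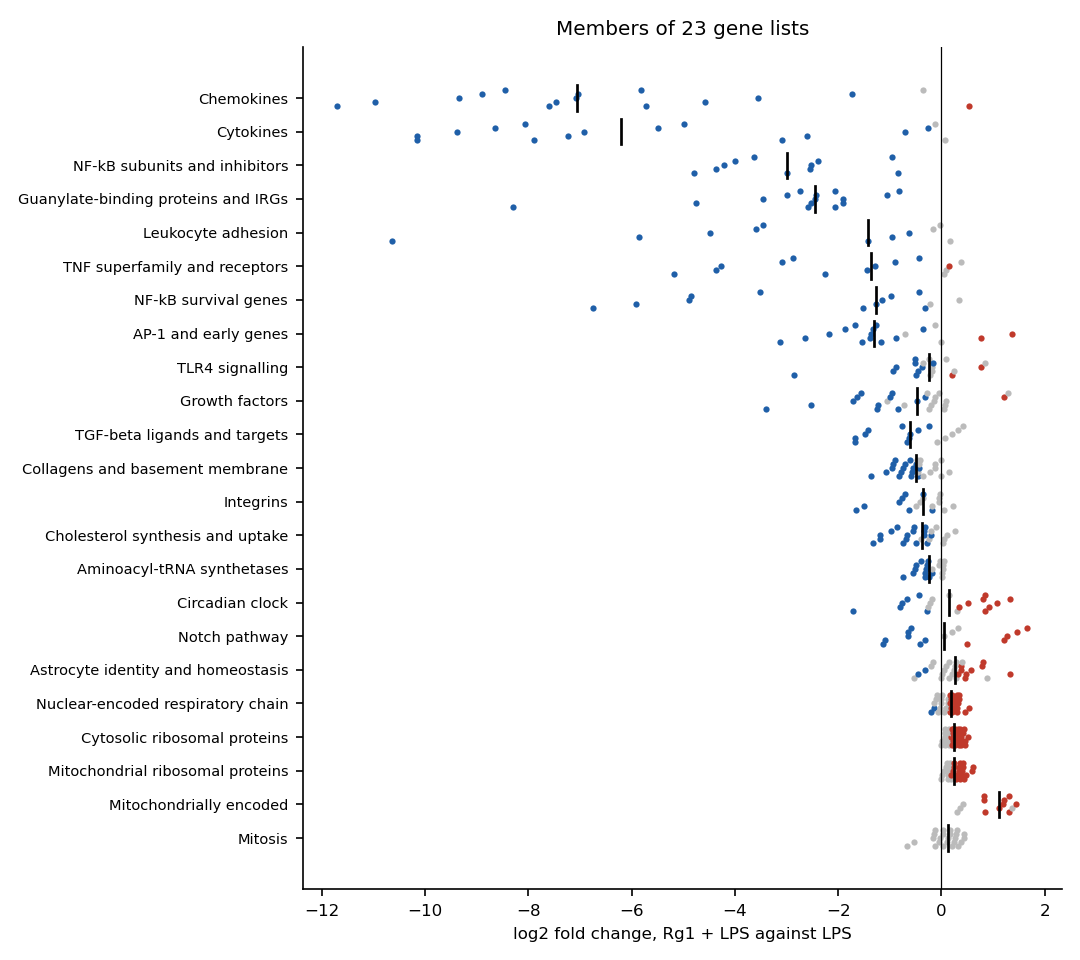
Log2 fold change of Rg1 plus LPS against LPS (horizontal axis) of every tested member of 23 gene lists, in blue where lower, red where higher and grey where the gene did not pass, with the list median as a black bar. Chemokines (-7.06), cytokines (-6.21) and NF-kB genes (-2.99) lie furthest left. The ribosomal and nuclear-encoded respiratory lists sit just right of 0, and the mitochondrially encoded list lies further right (1.11).

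A set of genes left the range of both other groups. All 5 Rg1 plus LPS libraries lay above all 10 LPS and control libraries for 1122 genes (7.30% of genes tested) and below them for 1156 (7.53%). Both counts use the same LPS libraries as the comparison itself.
The largest rises of this kind among genes over 5 CPM included a pair of small nucleolar RNA host genes, whose introns carry snoRNAs. Snhg11 stood at 1.45, 1.6, 2.06, 2.4 and 1.38 CPM in LPS and at 8.7, 4.72, 5.36, 7.29 and 4.53 CPM in Rg1 plus LPS. Control stood at 1.65 ± 0.672 CPM, in the range of LPS (log2 change 1.78 ± 0.27, adjusted p = 5.49e-05). Snhg20 measured 2.72, 1.98, 2.86, 2.37 and 2.08 CPM in the LPS libraries and 5.97, 7.15, 6.72, 8.94 and 8.34 CPM in the Rg1 plus LPS libraries. The lowest Rg1 plus LPS library, 5.97 CPM, lay above the highest LPS library, 2.86 (log2 change 1.63 ± 0.15, adjusted p = 3.69e-07).
Dand5, an antagonist of BMP and Nodal ligands, rose from 1.93 ± 0.328 to 5.57 ± 1.09 CPM (log2 change 1.53 ± 0.16, adjusted p = 1.12e-06), against 2.37 ± 0.219 CPM in control. Thap3, a zinc finger gene, had 4.28, 4.39, 5.1, 4.46 and 5.21 CPM under LPS and 10.6, 10.5, 10.2, 11.7 and 11.3 CPM with Rg1 before LPS. The 5 Rg1 plus LPS values were close together and above those of LPS, with control at 5 ± 0.429 CPM (log2 change 1.21 ± 0.10, adjusted p = 3.85e-08). Lime1, an adaptor of Src family kinases, rose from 5.28 ± 0.663 to 11.6 ± 1.73 CPM (log2 change 1.14 ± 0.14, adjusted p = 5.39e-06), Miip, a suppressor of cell invasion, from 2.5 ± 0.498 to 5.65 ± 0.851 CPM (log2 change 1.17 ± 0.16, adjusted p = 2.16e-05) and Polr1has, an antisense transcript, from 2.08 ± 0.353 to 5.17 ± 0.911 CPM (log2 change 1.31 ± 0.16, adjusted p = 7.15e-06). Whether counting used strand is not given in the sources used here, so reads of Polr1has and of the gene on the other strand cannot be told apart.
Below both groups lay, besides Sele, Lif, Tnfsf15, Nr4a3 and Ereg, genes of neuropeptide, protease and signalling function. Tac1, the precursor of substance P, ran at 1.1, 1.22, 2.92, 0.565 and 1.68 CPM in LPS, against 0, 0.0248, 0.148, 0.133 and 0.119 CPM in Rg1 plus LPS. Control stood at 13.1 ± 2.87 CPM, above LPS (log2 change -4.09 ± 0.52, adjusted p = 1.32e-05). Serpinb2, a plasminogen activator inhibitor, stood at 3.25, 2.98, 1.54, 3.25 and 2.83 CPM in LPS and at 0.459, 0.0496, 0.0494, 0.106 and 0.0477 CPM in Rg1 plus LPS. Its control mean was 6.8 ± 3.28 CPM (log2 change -4.24 ± 0.53, adjusted p = 1.09e-05). Hivep3, a zinc finger factor that binds kappa-B-like DNA, measured 21.1, 21.1, 25.1, 15.1 and 26.6 CPM in the LPS libraries and 2.17, 4.09, 2.05, 1.49 and 2.96 CPM in the Rg1 plus LPS libraries. The lowest LPS library, 15.1 CPM, lay above the highest of Rg1 plus LPS, 4.09, with control at 16.3 ± 2.05 CPM (log2 change -3.09 ± 0.22, adjusted p = 1.79e-08). Cd83, a surface protein of activated immune cells, fell from 7.21 ± 2.74 to 0.0298 ± 0.011 CPM (log2 change -7.77 ± 0.48, adjusted p = 2.36e-09).

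Markers of other cell types were also read. Summed over each list, fibroblast, pericyte and meningeal markers reached 2270 to 6580 CPM over the 10 libraries, and each of the other lists lay between 64.2 and 699 CPM. Of 18 microglia and macrophage markers 11 fell and 0 rose (61.1%; median log2 change -1.61), and 6 fell without LPS replicates 2 and 3. Ptprc, the leukocyte surface protein CD45, fell from 1.65 ± 0.726 to 0.212 ± 0.132 CPM (log2 change -2.93 ± 0.59, adjusted p = 0.000796), Itgam from 3.65 ± 2.1 to 0.549 ± 0.199 CPM (log2 change -2.73 ± 0.43, adjusted p = 9.89e-05) and Ctss from 11.8 ± 3.65 to 2.79 ± 0.923 CPM (log2 change -2.08 ± 0.39, adjusted p = 0.000503). No marker of this list was at 0 in either group, and P2ry12 and Aif1, chosen after their values were seen, stood at 0.201 and 0.421 CPM in LPS and at 0.47 and 0.606 CPM in Rg1 plus LPS. The part of these cells in the fall of the cytokine genes was not tested. In the complement list 7 of 16 genes fell and 1 rose (50%, near the 45.4% of all genes; median -0.50), and 4 lower without LPS replicates 2 and 3. C3ar1, a receptor on myeloid cells, fell from 10.7 ± 1.13 to 4.55 ± 1.61 CPM (log2 change -1.23 ± 0.21, adjusted p = 0.000174).
Of 12 fibroblast, pericyte and meningeal markers 2 fell and 0 rose (16.7%), while 3 rose without Rg1 plus LPS replicates 1 and 4. Pdgfrb, a pericyte receptor, fell from 144 ± 22 to 87.5 ± 28.6 CPM (log2 change -0.72 ± 0.19, adjusted p = 0.00531), with overlapping groups. Of 10 ependymal markers 4 rose (40%; median 0.68), and 7 without LPS replicates 2 and 3. The summed CPM of the 13 ependymal markers found, tested or not, was 64.2 to 121 in LPS and 100 to 162 in Rg1 plus LPS. Foxj1, the master factor of motile cilia, went from 54.9 ± 16 to 85.3 ± 18.5 CPM (log2 change 0.64 ± 0.17, adjusted p = 0.00733). Of 8 endothelial markers 2 fell (25%), and of 9 neuronal markers 1 rose (11.1%). Flt1, a VEGF receptor, fell from 22.9 ± 4.66 to 3.1 ± 0.696 CPM (log2 change -2.88 ± 0.19, adjusted p = 3.99e-09). Among acute phase and reactive astrocyte proteins 7 of 9 fell and 1 rose (88.9%; median -2.52), Saa3 from 44.8 ± 20.9 to 1.3 ± 0.567 CPM (log2 change -5.09 ± 0.37, adjusted p = 2.7e-08) and Steap4, a metalloreductase, from 132 ± 57.9 to 13.3 ± 6.6 CPM (log2 change -3.31 ± 0.35, adjusted p = 2.27e-06).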

How the data were processed

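RNA of 15 astrocyte libraries, 5 per group, was extracted with TRIzol and made into libraries with a VAHTS Universal V6 kit, per the labels. The authors deposited a table of raw counts per gene symbol and FPKM per library, and per the submitters' processing notes the builds were GRCm 38 and mm 10. No aligner, counter or strandedness is named (not given in the sources used here). The deposited FPKM equalled count over length over total and served for gene lengths, with 37 damaged rows of each FPKM file left out.

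Of 25748 symbols, 15362 passed filterByExpr. edgeR 4.0.16 (R 4.3.3) was fitted on the counts of all 15 libraries with TMM scaling and its robust quasi-likelihood test, for Rg1 plus LPS minus LPS, with Benjamini-Hochberg adjustment over all genes tested at 0.05. The SE was derived from the F statistic. Group members, the 64 gene lists and the rules were chosen with earlier results of these data known. Lists held 1251 distinct genes found, of which 1170 were tested. Each list was described by its counts and median, with no test of the list; the share called and the median of all genes are given at the start of the report. The naming rule leaves out predicted, Riken and LOC symbols. It covers the 10 largest gains and losses of mean CPM and the 15 highest and lowest log2 changes over 5 CPM, all with groups apart. It adds the 10 each way outside all other libraries over 5 CPM. It also takes up to 10 genes each way over 1 CPM in one group and at or under 3 counts in the other. The rest are the 3 members each way of each list with the lowest adjusted p, and Nlrp2, Nlrp3, Tlr4, Myd88, Rela and Il1b. Folds against at most 3 counts used exact counting intervals or a floor of 3 counts over the group. Shares were compared with an exact permutation test. Replicate numbers were not used as pairs. Alternatives were RLE scaling, library size only, DESeq2 1.42.0, limma 3.58.1 voom, other filters, fewer libraries, a replicate block, a length correction and no mitochondrial genes. Leaving out Rg1 plus LPS replicates 1 and 4 together was chosen after seeing the data. The scripts were tested on simulated counts. A few genes and 1 list that the rule covers are not reported here. Promoter windows came from the RefSeq table on GRCm38.p6.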

Additional observations from a re-analysis of the deposited data

Results flagged for a closer look

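In 27 of 366 groups of 5 libraries of the named genes (7.38%), 1 library stood apart from the other 4 by a gap of more than 0.71 of the group's range, where chance flags about 5% (1 in 20). No explanation was tested.

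In Rg1 plus LPS, replicate 1 was the high library for Nfkbia (54.7 CPM against 29.7 to 35.8 in the others), Tnf (0.507 against 0.0532 to 0.149), Sele (0.193 against 0.0238 to 0.0532), Serpinb2 (0.459 against 0.0477 to 0.106), Fosb (13.8 against 2.62 to 5.59), Zfp36 (42.7 against 23.5 to 28.7) and Eprs (147 against 120 to 124). Replicate 3 was the low library for Zfp36l2 (149 against 176 to 181). Replicate 5 was high for Smad3 (63.8 against 52.3 to 55.5), and replicate 2 low for Tnfrsf1b (2.33 against 3.31 to 3.45). At the level of a few counts, Acod1 stood at 0.213 CPM in replicate 4, Nlrp3 at 0.119 in replicate 5 and Cd83 at 0.0494 in replicate 3. A single count set the value of Il1b and Il27 in replicate 4 (0.0266 CPM each), of Ifnb1 in replicate 3 (0.0247) and of Nos2 in replicate 2 (0.0248).

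In LPS, replicate 3 was the high library for Il12b (3.66 CPM against 0.401 to 1.33 in the others), Fosl2 (565 against 478 to 495) and Nfil3 (37.4 against 29.2 to 30.3), and the low one for Serpinb2 (1.54 against 2.83 to 3.25). Replicate 5 was high for Lif (717 against 590 to 623), Jag1 (53.4 against 45.2 to 46.3) and Mrpl34 (24.8 against 20.1 to 21.2), and low for Rora (29.7 against 43.2 to 44.1). Replicate 2 was low for Bmp2 (3.31 against 4.41 to 4.65), and replicate 4 high for Gadd45a (97.1 against 70.6 to 76.8).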

How the results depend on the processing

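With the other settings tried, the numbers of genes higher and lower (3412 and 3564) stayed within 1.5 times. They were 3324 and 3629 with RLE scaling, 4895 and 2630 with library size only, 3544 and 3789 in DESeq2, 3396 and 3626 in limma voom, 2878 and 3119 with the control libraries out of the fit, 3571 and 3443 without mitochondrial genes, and 3012 to 3608 and 3160 to 3785 with 1 library left out. They were 3095 and 3493 without LPS replicates 2 and 3, and 3662 and 3811 without Rg1 plus LPS replicates 1 and 4. Genes higher by at least 2-fold numbered 448, and 244 when at least 1 CPM in 5 libraries was required, since fewer genes of low count were then tested. With the length trend removed, 2167 of the 3412 higher and 2776 of the 3564 lower genes kept their call and 18 took the opposite one. The log2 change then had the opposite sign in 5 named genes: Vim at -0.0015, Tpi1 at -0.02904, Manf at -0.08421, Hspe1 at -0.01071 and Map1lc3a at -0.1101. Of 301 genes covered by the naming rule and reported, 34 kept their sign and lost their call under that setting, besides the 5 above. The number that lost their call was 16 with library size only, 24 without LPS replicates 2 and 3, and 3 to 17 with 1 library left out. The cause was not tested.

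The labels do not say that a replicate number marks a shared source. The correlations of deviations between same-numbered libraries were 0.168, 0.0499, 0.423, 0.366 and 0.424, so that 4 of 5 were over 0.1 and 1 was not, and the numbers were not taken as pairs. Replicates 1, 3 and 5 of LPS correlated best with their own number, replicate 2 with replicate 3 of Rg1 plus LPS (0.263) and replicate 4 with replicate 1 (0.414), which is a hint of shared numbers from the data and not from the design. With a replicate block, 3489 genes were higher and 3765 lower, and Mbp and Pdgfra were the named genes that lost their call. Depth limited the genes at or under 3 counts, for which only ratios with counting intervals or bounds are given, and Nlrp2.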

Other observations

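Among genes that rose at least 8-fold, 11 of 12 had a predicted-gene or LOC symbol, which the naming rule leaves out. Those named here were chosen after their values were seen. The share of such symbols among all genes tested, or among genes of low count, was not counted. The 11 of 12 is therefore a description of these genes only. In all 11 the Rg1 plus LPS libraries lay above the LPS libraries. Their levels were low, at most 0.188 CPM in LPS, at most 0.336 CPM in control and 0.273 to 4.12 CPM in Rg1 plus LPS. Of the 11, 5 were matched to the RefSeq table and all 5 are long non-coding RNAs there. Gm48089 had 0 counts in LPS, 1 in control and 100 in Rg1 plus LPS, at least 30-fold higher against 3 counts over the group. Gm41284 had 2 counts in LPS, 10 in control and 273 in Rg1 plus LPS, a ratio of 123 (95% counting interval 33.8 to 1020). Gm40780 had 2, 5 and 124 counts, a ratio of 55.9 (15.2 to 467). LOC118568618 had 14 counts in LPS and 439 in Rg1 plus LPS (log2 change 4.76 ± 0.43), and Gm38865 had 17 and 468. The twelfth gene, Fam181a, had overlapping groups.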
